A study of Mus musculus with 4 samples.

Results

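Acta2 (smooth muscle α-actin) was among the genes with the largest rise in mouse embryonic stem cells (ESCs) that lack SNF2L, and the 10 genes described here were selected on the basis of that rise, to see whether it was shared by the smooth muscle and serum response factor (SRF) contractile programme. They are Acta2, Actg2, Tagln, Cnn1, Cnn2, Myl9, Cald1, Tpm1, Tpm2 and Srf, which are 10 of the 24594 genes in the table of counts. All 10 were among the 13840 genes tested. Poly(A) RNA was sequenced in 4 libraries of a 129S6/SvEvTac ESC line, 2 from wild-type (WT) cells and 2 from Snf2l knock-out cells, with no treatment in either group. Snf2l is the gene Smarca1, which encodes an ATPase of the ISWI chromatin remodelers. According to the study's methods, ESCs were grown on gelatin in medium with serum and LIF and mutants were made with Cas9. The sources describe 1 clone for the genotype, so clone and genotype cannot be told apart, and the labels do not say whether the libraries of a group came from separate cultures, so that p-values measure the spread between these libraries. The methods speak of independent replicates without further detail.

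SRF is a transcription factor that binds the CArG box, a pair of C bases and a pair of G bases on either side of a core of A and T. It acts with different partners. The myocardin-related factors MRTFA and MRTFB are held by monomeric actin and move with SRF to genes of the cytoskeleton when actin polymerizes, whereas the ternary complex factors lead SRF to immediate early genes. Myocardin itself is the partner best known from smooth muscle, where SRF targets such as Acta2, Tagln and Cnn1 build the contractile apparatus. Many of these genes are not particular to muscle. Tpm1, Cald1 and Cnn2 also serve the actin filaments of other cells, and Acta2 and Tagln also mark myofibroblasts.

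The CArG boxes near the starts of these genes are shown first, because they are the sequence that a shared control by SRF is known to use. RefSeq promoter windows (GRCm38, which is mm10), from 250 bases before to 50 bases after an annotated start, were searched on both strands for the CArG box, with a core of 6 A or T, and for a CArG-like box with 1 other base allowed in the core. A window was found for 8 of the 10 genes, Tagln and Actg2 having no entry. Capitals mark the box, and each sequence reads 5′ to 3′ on the strand of the gene.
Acta2, CArG-like, chr19:34255438-34255467 (-): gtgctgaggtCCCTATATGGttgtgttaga
Acta2, CArG-like, chr19:34255388-34255417 (-): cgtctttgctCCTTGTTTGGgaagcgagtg
Cnn2, CArG, chr10:79988534-79988563 (+): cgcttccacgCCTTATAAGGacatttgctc
Myl9, CArG, chr2:156775293-156775322 (+): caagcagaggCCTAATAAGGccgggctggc
Myl9, CArG-like, chr2:156775355-156775384 (+): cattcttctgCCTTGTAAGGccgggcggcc
Srf, a pair of CArG boxes, chr17:46556215-46556244 (-): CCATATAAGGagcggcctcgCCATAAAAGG
Fhl2, CArG, chr1:43163973-43164002 (-): gcgcgtgtgtCCTTATATGGtcaaatgact

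Counted from the annotated start, the boxes of Acta2 began at -84 and -34, that of Cnn2 at -56, those of Myl9 at -161 and -99 (CArG-like) and those of Srf at -82 and -62. In GENCODE M21 the Acta2 sites also fall in an exon of a longer Acta2 transcript, those of Cnn2 and Myl9 lie outside annotated genes, and those of Srf lie in an intron of a gene on the opposite strand. Fhl2, an SRF target outside the 10 genes, is included because it also rose, and the site shown lies in an intron of longer Fhl2 transcripts. Another CArG box of Fhl2, not shown, began at -96 from another annotated start and falls in an Fhl2 exon. Fhl2 was picked for its rise, and of the 7 other SRF targets with a CArG box in a window it was the only one called. The other 6 were called in neither direction. A CArG box stood in the windows of 3 of the 8 genes (Cnn2, Myl9 and Srf), against 1.51% of the 10962 tested genes with a window and 1.63% of all 32851 windows. With CArG-like boxes the number was 4 of 8, with Acta2 added, against 10.7% of tested genes. The genes were listed as smooth muscle and SRF contractile genes, so such an excess came with the choice and says nothing about the knock-out. Of the 3 genes with a CArG box, Cnn2 was called higher and Myl9 and Srf were not called. No box of either kind was found in the windows of Cnn1, Cald1, Tpm1 and Tpm2, which says only that these letters were not in those windows. Cald1, Tpm1 and Tpm2 were called higher all the same, and Cnn1 was not called.

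**Figure D1:**
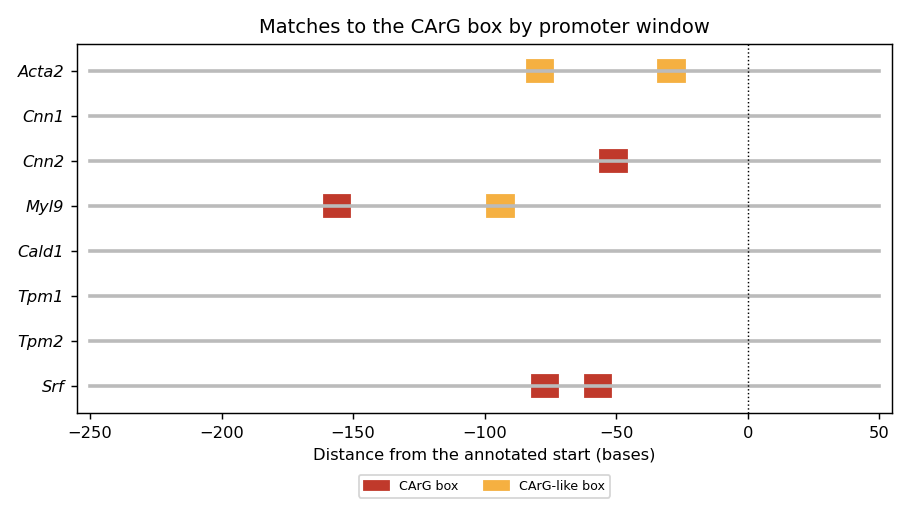
Position of CArG boxes (red) and CArG-like boxes (orange) in the promoter windows of the 8 genes with a RefSeq window, in bases from the annotated start (dotted line). Cnn2, Myl9 and Srf hold a CArG box, Acta2 holds 2 CArG-like boxes and Myl9 a CArG-like box besides its CArG box, while the windows of Cnn1, Cald1, Tpm1 and Tpm2 hold neither.

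The libraries held between 13771642 and 15608803 counts. Smarca1 had 620 and 626 counts in WT against 37 and 31 in the knock-out, so the targeted transcript followed the labels. Of the 8 ESC markers all were expressed, with a summed level of 4296 to 4488 CPM (counts per gene scaled to the library's total) in WT and 4568 to 4583 CPM in the knock-out. Of the genes tested, 4% were called higher and 5.21% lower in the knock-out at an adjusted p-value under 0.05 in edgeR. Chromosome 8 holds 754 of the genes tested and 453 of the 721 lower genes. In the same fit, 546 of the 13080 genes tested outside chromosomes 8 and Y were called higher and 262 lower. The median log2 fold change of those 13080 genes was 0.013. None of the 10 genes lies on chromosome 8, but several genes of the lists used for comparison do, and they are marked below.

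As for Acta2, whose rise set the choice, the level of each of the other 9 genes was higher in both knock-out libraries than in both WT libraries, an arrangement found in 25.2% of all genes tested. Of these, Actg2 passed the filter on low counts only through the knock-out. Leaving Acta2 aside, 5 of the other 9 genes were called higher in edgeR (Tagln, Cald1, Tpm2, Cnn2 and Tpm1), against 4% of all genes tested. In edgeR 0 were called lower, against 5.21% of all genes tested. DESeq2 and an unadjusted p-value under 0.05 in edgeR also gave 0 lower. Actg2, Cnn1, Myl9 and Srf were not called. Without WT replicate 1 the number called was 3. The increases differed in size. Acta2 rose 5.70-fold, Tagln 2.72-fold and Cald1 1.87-fold, Tpm2, Cnn2 and Tpm1 rose between 1.67-fold and 1.26-fold, and Srf itself differed by 1.06-fold. The median log2 fold change of the other 9 genes was 0.49, against 0.0002 over all genes tested. Because the genes were proposed with earlier results of this same contrast in view, these counts describe the libraries and are not independent evidence for a shared change.

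**Figure D2:**
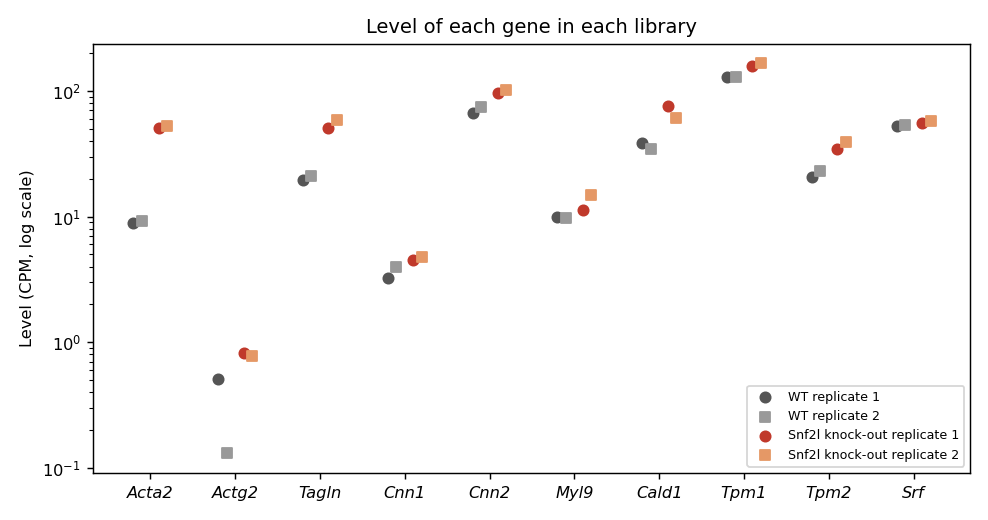
Level of each of the 10 genes in each library, in CPM on a log scale, with grey symbols for WT and red or orange symbols for the Snf2l knock-out. Both knock-out libraries lie above both WT libraries for every gene, with a wide gap for Acta2 (8.81 and 9.26 CPM against 50.5 and 52.6 CPM) and a narrow one for Srf (52.5 and 53.8 CPM against 55.1 and 57.8 CPM).

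The actins of smooth muscle were considered first. Acta2 (Entrez gene 11475, chromosome 19, 34240336 to 34255585) encodes the α-actin of vascular smooth muscle. It had 120 and 142 counts in WT against 793 and 808 in the knock-out. The mean rose from 9.04 ± 0.318 to 51.6 ± 1.44 CPM (SD, n = 2 each), which is 2.51 on the log2 scale (SE 0.119). The replicates of a genotype differed by at most 1.05-fold, while the knock-out to WT ratio lay between 5.46 and 5.96 in the 4 pairs of libraries. Since this rise prompted the selection, it is given without a p-value. It ranked 5 among the rises of all genes tested. As these are bulk libraries, more RNA per cell and more cells with the transcript cannot be told apart, here or for the genes that follow.

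Actg2 (Entrez gene 11468, chromosome 6, 83512909 to 83536251), the γ-actin of enteric smooth muscle, was scarcely detected. It had 7 and 2 counts in WT against 13 and 12 in the knock-out, and passed the filter on low counts only through the knock-out libraries. The counts did not overlap, but the WT libraries differed by 3.94-fold from each other. The log2 fold change was 1.35 (SE 0.555, 95% interval 0.16 to 2.53), which was not called (edgeR adjusted p = 0.165). Without WT replicate 1 it was 2.55 and without WT replicate 2 it was 0.64 (edgeR adjusted p = 0.0819 and 0.713). At this depth the interval spans a small and a large difference.

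The rise of Acta2 was then set beside the other actins per kb of gene length, since all 6 code for nearly identical proteins. Acta2 went from 4.12 ± 0.145 to 23.5 ± 0.655 CPM per kb. It remained below the cytoplasmic actins, Actb at 764 ± 2.67 and 789 ± 42.4 CPM per kb and Actg1 at 52.3 ± 3.08 and 50.5 ± 3.55 CPM per kb. Acta2 thus made up 0.501% ± 0.0176 of the summed actin level in WT and 2.71% ± 0.071 in the knock-out (SD, n = 2 each). Actb and Actg1, both SRF targets, had log2 fold changes of 0.05 and -0.05 (edgeR adjusted p = 0.790 and 0.816), and their groups overlapped, although each sign changed when a library was left out. Acta1, the actin of skeletal muscle on chromosome 8, had 18 and 8 counts in WT against 48 and 50 in the knock-out and was called higher (log2 fold change 1.80, SE 0.338, edgeR adjusted p = 3.15e-03), with values of 2.58 and 1.25 without WT replicate 1 and WT replicate 2. It would not have passed the filter on the WT libraries alone. Of the 50-base stretches of Acta2 transcripts, 0.326% occur in another gene, and 0 of them in Actg2, Acta1 or Actc1, whereas the values were 9.12% for Actb and 37.4% for Actg1, so that the summed actin level behind the shares is less certain.

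**Figure D3:**
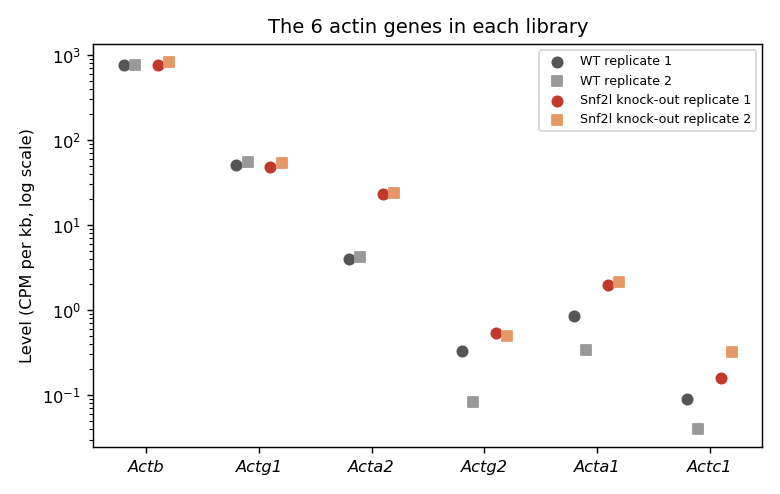
Level of the 6 actin genes in each library in CPM per kb of gene length, on a log scale, with grey symbols for WT and red or orange symbols for the Snf2l knock-out. Actb and Actg1 overlap between genotypes, whereas Acta2, Actg2, Acta1 and Actc1 lie higher in both knock-out libraries and all remain below Actg1. Actc1 had only 2 and 1 counts in WT against 4 and 8 in the knock-out and was not tested.

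Among the proteins that bind actin filaments, transgelin and the calponins are related in sequence. Tagln (Entrez gene 21345, chromosome 9, 45929628 to 45936058), an early marker of smooth muscle, had 264 and 320 counts in WT against 795 and 907 in the knock-out. The groups were well apart, with means of 20.1 ± 1.05 and 54.9 ± 5.90 CPM (SD, n = 2 each), and Tagln rose by 1.44 on the log2 scale (SE 0.116, edgeR adjusted p = 3.61e-06). Tagln was the only gene of the other 9 to pass the study's own threshold, an adjusted p-value under 0.01 with an absolute log2 fold change over 1, which 0.571% of all genes tested passed in the upward direction. Of the exonic bases of Tagln, 67.9% overlap genes on the opposite strand (Pcsk7 and Gm48529), and whether counting used the strand is not given in the sources used here. Pcsk7, named for this overlap, had 226 and 281 counts in WT against 315 and 266 in the knock-out, with overlapping groups and a log2 fold change of 0.10 (edgeR adjusted p = 0.732), so its counts did not follow those of Tagln.

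The calponins inhibit the myosin ATPase in vitro, and Cnn1 is the form typical of differentiated smooth muscle, while Cnn2 is found more widely. Cnn2 (Entrez gene 12798, chromosome 10, 79988600 to 79995400) had 904 and 1133 counts in WT against 1511 and 1561 in the knock-out. It rose from 70.2 ± 5.31 to 98.9 ± 3.73 CPM (log2 fold change 0.49, SE 0.0964, edgeR adjusted p = 4.04e-03), although without WT replicate 1 the edgeR adjusted p-value was 0.0867. Cnn1 (Entrez gene 12797, chromosome 9, 22099221 to 22109221) had 44 and 61 counts in WT against 71 and 73 in the knock-out. Its groups were close to each other, and the difference was not called (log2 fold change 0.36, SE 0.201, 95% interval -0.07 to 0.78, edgeR adjusted p = 0.328). Per kb Cnn1 was the scarcest calponin, at 1.32 ± 0.193 CPM per kb in WT against 28.5 ± 2.16 for Cnn2 and 101 ± 1.67 for Cnn3. Cnn3, the paralog found in many tissues, had a log2 fold change of 0.21 and was not called (edgeR adjusted p = 0.145).

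Caldesmon and the regulatory light chain act on the interaction of myosin with actin. Cald1 (Entrez gene 109624, chromosome 6, 34598495 to 34775469) encodes caldesmon, which has a long form in smooth muscle and a short form in other cells that are not resolved in counts per gene. It had 528 and 530 counts in WT against 1191 and 939 in the knock-out. The knock-out libraries differed by 1.24-fold, and both lay clear of WT. The level rose from 36.7 ± 2.98 to 68.5 ± 10.5 CPM (log2 fold change 0.90, SE 0.119, edgeR adjusted p = 2.61e-04). Myl9 (Entrez gene 98932, chromosome 2, 156775408 to 156781657), the regulatory light chain of smooth muscle and non-muscle myosin, had 134 and 148 counts in WT against 176 and 229 in the knock-out. The gap between the groups was narrower than that between the knock-out libraries, which differed by 1.33-fold. Myl9 was not called (log2 fold change 0.42, SE 0.159, 95% interval 0.08 to 0.76, edgeR adjusted p = 0.125), and the result turned on the knock-out libraries. Without knock-out replicate 1 the log2 fold change was 0.61 (edgeR adjusted p = 5.10e-03), and without knock-out replicate 2 it was 0.20 (edgeR adjusted p = 0.622).

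Tropomyosins lie along the actin filament and gate its contact with myosin, and genes such as Tpm1 make several muscle and cytoplasmic isoforms. Tpm2 (Entrez gene 22004, chromosome 4, 43513726 to 43523583) had 279 and 356 counts in WT against 537 and 599 in the knock-out. It rose from 21.9 ± 1.93 to 36.6 ± 3.36 CPM (log2 fold change 0.74, SE 0.118, edgeR adjusted p = 1.02e-03), with no overlap between the groups. Tpm1 (Entrez gene 22003, chromosome 9, 67022590 to 67049672), the most abundant of the 10 genes in CPM, had 1750 and 1967 counts in WT against 2483 and 2536 in the knock-out. Its replicates were close, at 128 ± 0.158 CPM in WT and 162 ± 4.78 CPM in the knock-out. The rise was small (log2 fold change 0.33, SE 0.0877, edgeR adjusted p = 0.0270), and its call was lost without WT replicate 1, WT replicate 2 or knock-out replicate 2 (edgeR adjusted p = 0.227, 0.215 and 0.0676) and when genes of chromosomes 8 and Y were left out (0.0563). Among the tropomyosins Tpm1 and Tpm2 made up 20.1% ± 0.196 and 7.63% ± 0.609 of the summed level per kb in WT and 23.7% ± 0.339 and 11.9% ± 0.572 in the knock-out (SD, n = 2 each). Tpm3 and Tpm4, the other tropomyosin genes, were not called, with log2 fold changes of 0.08 and -0.27 (edgeR adjusted p = 0.634 and 0.0900), the latter on chromosome 8.

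**Figure D4:**
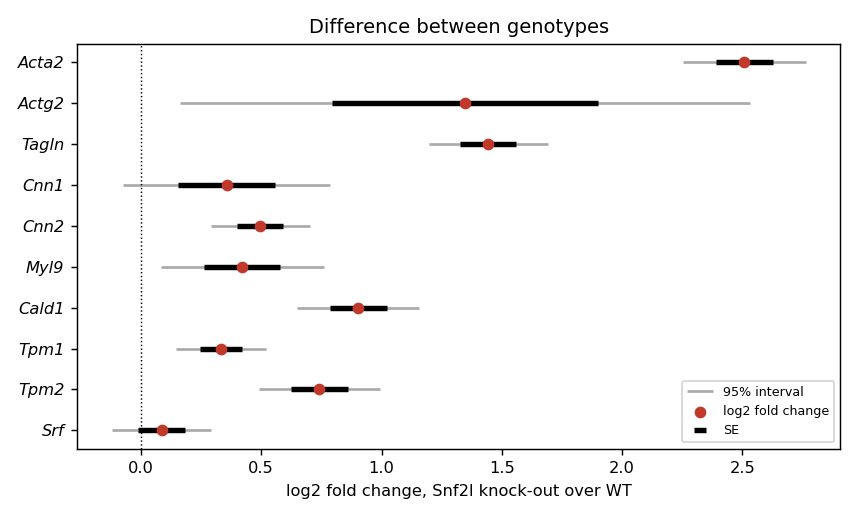
Log2 fold change of each of the 10 genes in the Snf2l knock-out over WT, with its SE (black bar) and 95% interval (grey line) from the fit over all genes. Acta2 and Tagln stand at 2.51 and 1.44, the wide interval of Actg2 comes with its low counts, and the intervals of Cnn1 and Srf include 0. The interval of Acta2 is no test of it, because its rise set the choice of the genes.

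The regulator was examined last. Srf (Entrez gene 20807, chromosome 17, 46546838 to 46558267) had 715 and 825 counts in WT against 864 and 888 in the knock-out. The means were 53.2 ± 0.920 and 56.4 ± 1.92 CPM (SD, n = 2 each). The groups were adjacent without overlapping. The log2 fold change of 0.09 (SE 0.0968, 95% interval -0.12 to 0.29) was not called (edgeR adjusted p = 0.674), and the interval leaves out a change of the size seen for Tagln. The SRF partners Mrtfa and Mrtfb had log2 fold changes of -0.01 and -0.12 (edgeR adjusted p = 0.972 and 0.667), with overlapping groups and signs that changed when a library was left out. Myocd, which codes for myocardin, was absent from both WT libraries and knock-out replicate 2, had 5 counts in knock-out replicate 1 and was not tested. Of the 14 genes tested among 15 SRF partners and regulators of RhoA and actin, 0 were called in edgeR in either direction. This compares with 4% higher and 5.21% lower over all genes tested, and the median log2 fold change of the 14 was -0.01. At an unadjusted p-value under 0.05 in edgeR 1 of them was higher and 1 lower, and DESeq2 called 0. Without knock-out replicate 1 edgeR called 1 lower.

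Other genes of these pathways were then compared, as lists chosen with earlier results of these data known. Among 25 other cytoskeletal targets of SRF and MRTF, 5 were called higher and 1 lower, against 4% and 5.21% of all genes tested. A log2 fold change above 0 was found for 20 of them, against 6927 of the 13840 genes tested, and the median was 0.21. DESeq2 called 2 higher and 1 lower, 13 were higher and 2 lower at an unadjusted p-value under 0.05 in edgeR, and without either WT library 3 were called higher. The largest called rise was that of Fhl2, a LIM-domain cofactor, which had 5 and 9 counts in WT against 39 and 42 in the knock-out (log2 fold change 2.41, SE 0.354, edgeR adjusted p = 5.94e-04). Fhl2 passed the filter only through the knock-out libraries, a route that favours genes higher in the knock-out. Apart from it, 4 of the list were called higher. Filip1l, with 8 and 13 counts in WT against 28 and 19 in the knock-out, passed in the same way and was not called. Both genes are among the 13 and among the 20 above. Tgfb1i1, a focal adhesion protein, rose by 1.24 on the log2 scale (edgeR adjusted p = 7.88e-03), and Palld, an actin-bundling protein on chromosome 8, fell by 0.72 (edgeR adjusted p = 2.19e-04). By contrast, of the 8 tested immediate early genes that SRF controls with ternary complex factors, 0 were called higher and 2 lower in edgeR, with a median of 0.06. DESeq2 called 0 higher and 1 lower, and at an unadjusted p-value under 0.05 in edgeR 1 was higher and 3 lower. Without WT replicate 2, 0 were called lower in edgeR. The larger fall was that of Ier2 on chromosome 8 (log2 fold change -0.44, edgeR adjusted p = 0.0114), and it was not called without WT replicate 2 (-0.31, edgeR adjusted p = 0.249). Egr1, the other called fall, lies on chromosome 18 (log2 fold change -0.38, edgeR adjusted p = 0.0404). Junb, also on chromosome 8, fell by 0.41 and was not called (edgeR adjusted p = 0.0522). With chromosomes 8 and Y left out, 0 immediate early genes were called lower. Fosb, with 4 and 10 counts in WT against 14 and 12 in the knock-out, passed the filter only through the knock-out libraries and was not called. Its log2 fold change of 0.78 is part of the median of 0.06. Whether these lists differ from each other was not tested. For the unadjusted counts, here and in the lists below, no share over all genes is given, so they cannot be set against a background.

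The remaining smooth muscle genes were described next. Of 15 listed genes 12 were tested, and 2 were called higher and 3 lower, against 4% and 5.21% of all genes tested. The median log2 fold change was -0.06. DESeq2 called 1 higher and 0 lower, and 2 were higher and 4 lower at an unadjusted p-value under 0.05 in edgeR. The counts moved when a library was left out, with 0 higher without WT replicate 1, 1 higher when any other library was left out, and 1 lower without WT replicate 2 or knock-out replicate 1. Lmod1, leiomodin of smooth muscle, had 7 and 10 counts in WT against 25 and 20 in the knock-out and was called higher (log2 fold change 1.29, edgeR adjusted p = 0.0469), a call lost whichever library was left out (edgeR adjusted p = 0.0617 to 0.263). It passed the filter only through the knock-out libraries. Pdlim3, a Z-disc protein on chromosome 8, fell by 1.20 on the log2 scale (edgeR adjusted p = 0.0376), a call lost without either WT library or knock-out replicate 1 (edgeR adjusted p = 0.0935 to 0.179). The other calls of this list lie outside chromosome 8. Csrp1 was higher (log2 fold change 0.52, edgeR adjusted p = 3.41e-03). Nexn and Synpo2 were lower (log2 fold change -0.87 and -0.85, edgeR adjusted p = 9.96e-03 and 0.0427). Myh11, the heavy chain that defines mature smooth muscle, had 12 and 7 counts in WT against 13 and 4 in the knock-out, with overlapping groups. The summed level of the 5 defining markers of smooth muscle was 55.7 to 61.9 CPM in WT and 58.2 to 62.4 CPM in the knock-out. Smtn and Des, at 37.8 and 19.7 CPM in WT, made up most of this sum, which says little about Lmod1, Myh11 and Myocd.

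Pathways that share targets with SRF were also described. The background in edgeR is again 4% of all genes tested called higher and 5.21% lower. Of 11 YAP and TEAD genes 4 were called higher and 0 lower (2 and 0 in DESeq2, 5 and 0 at an unadjusted p-value under 0.05 in edgeR), the median log2 fold change being 0.34, and Axl, a receptor tyrosine kinase, rose most among those called (0.84, edgeR adjusted p = 0.0154), though not without WT replicate 2 (edgeR adjusted p = 0.164). Without WT replicate 1 the number called higher was 2, and without WT replicate 2 it was 1. Ankrd1 of this list, with 7 and 11 counts in WT against 15 and 20 in the knock-out, passed the filter only through the knock-out libraries. It was not called, and its log2 fold change of 0.85 is part of the median of 0.34. Of 11 tested genes of the TGF-β pathway, which induces Acta2 and Tagln in fibroblasts, 5 were called higher and 0 lower in edgeR. The counts were 4 and 0 in DESeq2, and 6 and 0 at an unadjusted p-value under 0.05 in edgeR. The median was 0.35. Tgfb2, a ligand, had 21 and 15 counts in WT against 92 and 60 in the knock-out (log2 fold change 1.97, SE 0.294, edgeR adjusted p = 6.81e-04). Tgfbi, a matrix protein, rose by 1.16 (edgeR adjusted p = 1.54e-04), and Tgfbr2, a receptor, had 7 and 6 counts in WT against 21 and 20 in the knock-out (log2 fold change 1.54, edgeR adjusted p = 0.0272). The call of Tgfbr2 was lost whichever library was left out (edgeR adjusted p = 0.0682 to 0.199), and the gene passed the filter only through the knock-out libraries. Apart from it 4 genes of the pathway were called higher, and without either WT library the number was 3.

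**Figure D5:**
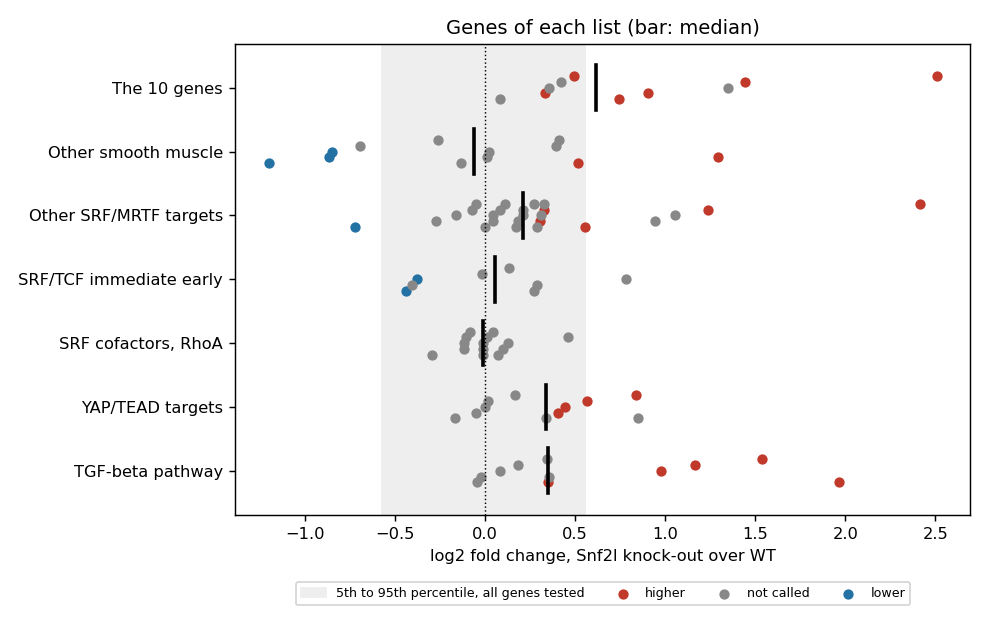
Log2 fold change of the tested genes of 7 lists in the Snf2l knock-out over WT, with red points for genes called higher, blue points for genes called lower, grey points for genes not called, a black bar for the median and a grey band for the middle 90% of all genes tested. The medians lie at 0.62 for the 10 genes with Acta2 included, -0.06 for other smooth muscle genes, 0.21 for other SRF and MRTF targets, 0.06 for immediate early genes, -0.01 for SRF partners and RhoA regulators, 0.34 for YAP and TEAD genes and 0.35 for TGF-β genes. Acta2 is coloured by the same rule, which is no test of it, because its rise set the choice of the genes.

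Markers of other cells that express Acta2 were measured beside these results. Over all genes tested, edgeR called 4% higher and 5.21% lower. The summed level of 12 fibroblast markers was 15.7 to 18.6 CPM in WT and 34.1 to 34.6 CPM in the knock-out, and of the 8 tested 3 were called higher (Col1a1, Col3a1 and Pdgfra) and 0 lower. DESeq2 also called 3 higher and 0 lower, and at an unadjusted p-value under 0.05 in edgeR 6 were higher and 0 lower. Col1a1, a collagen chain, had 77 and 69 counts in WT against 207 and 211 in the knock-out (log2 fold change 1.41, edgeR adjusted p = 9.18e-05). Its mean went from 5.08 to 13.5 CPM, so this 1 gene carries a large part of the rise in the sum. Col3a1, another collagen chain, rose by 2.44 and Pdgfra, a growth factor receptor, by 1.33 (edgeR adjusted p = 1.38e-03 and 3.73e-03). Col3a1, with 4 and 8 counts in WT against 29 and 42 in the knock-out, passed the filter only through the knock-out libraries, so that 2 of the 3 calls stand apart from it. Postn, with 5 and 3 counts in WT against 15 and 10 in the knock-out, passed it in the same way. Both are among the 6 genes with an unadjusted p-value under 0.05 in edgeR. Lum and Fap, which mark fibroblasts, had 0 counts in all libraries, and Dcn had 0 and 2 counts in each genotype. For 12 markers of cardiac and skeletal muscle, the sum was 26.5 to 26.6 CPM in WT and 22.4 to 26.0 CPM in the knock-out, with Acta1 called higher and Myh3, an embryonic myosin, called lower (log2 fold change -1.07, edgeR adjusted p = 8.80e-03). For 8 markers of pericytes and endothelium, the sum was 20.6 to 22.2 CPM in WT and 21.6 to 22.6 CPM in the knock-out, with Kdr, a VEGF receptor, called higher (1.53, edgeR adjusted p = 3.43e-03). Tek and Vwf, at 10.95 and 7.38 CPM in WT, made up most of this sum, which says little about the other markers. The part of such cells in the rise of Acta2 was not tested. Among the ESC markers Klf4 was called higher (0.34, edgeR adjusted p = 0.0359) and Zfp42, on chromosome 8, lower (-0.60, edgeR adjusted p = 3.80e-04), the call of Klf4 being lost without either WT library or knock-out replicate 1 (edgeR adjusted p = 0.142 to 0.241).

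Finally, the genes nearest to the pattern of Acta2 were listed, by the Euclidean distance between log2 CPM values over the 4 libraries, each gene centred on its WT mean and with 0.1 CPM added. These were Prss23 (0.191), a serine protease, Pmp22 (0.210), a membrane protein of myelin, Csf1 (0.258), a macrophage growth factor, Fhl2 (0.489) and Izumo2 (0.574). None but Fhl2 belongs to the lists above. All had far fewer counts than Acta2, and Prss23, Fhl2 and Izumo2 would not have passed the filter on the WT libraries alone. Prss23 had 9 and 10 counts in WT against 73 and 66 in the knock-out, Pmp22 had 17 and 19 against 116 and 102, and Csf1 had 13 and 17 against 113 and 92. Izumo2 had 3 counts in each WT library, which is the floor taken for detection, and 19 in each knock-out library. With 4 libraries in 2 groups the distance reflects mainly the size of the fold change.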

How the data were processed

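The authors aligned the reads to mm10 and deposited 1 table of whole-number counts per Entrez gene over UCSC Known Genes, not normalized, with a deposited gene length. The labels name a stranded kit and the methods an unstranded one. Of 24594 genes, 24570 (99.9%) matched RefSeq symbols by identifier. Library totals lay between 13771642 and 15608803 counts, and scarce genes are limited by counting error.

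The analysis used edgeR 4.0.16 in R 4.3.3 (filterByExpr with a minimum count of 10, TMM factors, legacy quasi-likelihood test, genotype as the only term, two-sided), with Benjamini-Hochberg adjustment over 13840 genes. TMM is an assumption, since no normalization is named in the methods. Called means an adjusted p-value under 0.05. SEs come from the fold change and its F statistic, and CPM values from TMM-scaled totals. The floor of 3 counts is per library, and covers counting error only. The procedure was checked on simulated counts.

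The 10 genes and all lists were chosen with earlier results of these data known. Named genes are the 10 genes, their paralogs and SRF partners, Smarca1, in each other list the called genes with an absolute log2 fold change over 1 and the largest called rise and fall, smooth muscle markers at 0, and the 5 genes nearest to Acta2. Pcsk7, Actc1, Filip1l, Csrp1, Nexn, Synpo2, Ankrd1, Fosb, Junb and Egr1 were named after their values were seen. So were the markers Myh11, Smtn, Des, Lum, Fap, Dcn, Postn, Tek and Vwf. Replicates differed by more than sampling noise (chi-square per degree of freedom 5.17 in WT and 7.35 in the knock-out). Alternatives were other scalings, filters and fits, DESeq2 1.42.0, a replicate block, the study's threshold, chromosomes 8 and Y left out, and each library left out in turn.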

Additional observations from a re-analysis of the deposited data

How the results depend on the processing

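Over 14 alternatives none reversed the sign of any of the 10 genes. Of 124 values of the 9 genes other than Acta2, 117 stayed on their side of the threshold. Acta2 lay between 2.48 and 2.55 and Tagln between 1.33 and 1.55 in log2 fold change, and the changed calls were those given above for Cnn2, Tpm1 and Myl9. Actg2 had no adjusted p-value in DESeq2 and was removed by a filter of 10 counts in every library. Of the other 9 genes the number called higher was 5, and 1 at the study's threshold and 3 to 6 with a library left out. Over all genes, 553 were called higher and 721 lower. These numbers were 281 and 456 in DESeq2, 79 and 58 at the study's threshold, 318 to 817 and 511 to 1115 with a library left out (lowest without WT replicate 1, highest without knock-out replicate 1), and 204 lower without chromosomes 8 and Y. With the replicate number as a block (replicate block), 1610 were called higher and 1861 lower, and 6 of the 9 genes, with Myl9 added (edgeR adjusted p = 9.18e-03). The numbers only name libraries, since no label pairs them, and the correlation of deviations of libraries with the same number was 0.196. In DESeq2 the calls of Tgfb1i1, Myh3, Axl, Klf4, Lmod1, Pdlim3, Nexn, Synpo2 and Egr1 were lost as well. Signs changed for genes near 0. With a library left out the log2 fold change of Actb was -0.0096 to 0.10, of Actg1 -0.12 to 0.022, of Mrtfa -0.23 to 0.17 and of Mrtfb -0.26 to 0.032. Mrtfa was at 0.017 with upper-quartile factors and 0.0033 with library size alone. The causes were not tested. No scaling moved the median of all genes beyond 0.031. Depth limits genes with few counts, such as Actg2 and Myocd.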
